A study of Mus musculus with 12 samples.

Results

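The respiratory chain genes described here were 49 nuclear genes that encode subunits of complexes I to IV of the mitochondrial electron transport chain, measured in bulk RNA from mouse hippocampus. They were defined by a list of symbols, and all 49 matched 1 row each among the 23382 rows of the deposited gene table. They comprised 32 genes of complex I, 4 of complex II, 5 of complex III and 8 of complex IV, with Ndufa4 counted in complex IV. All 49 were among the 15802 genes tested.

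The 12 libraries formed 4 groups of 3, all on a C57BL/6 background: aDN-DISC1 mutant mice given delta-9-tetrahydrocannabinol (THC), mutant mice given vehicle, control mice given THC and control mice given vehicle. DISC1, a scaffold protein, has been tied to psychiatric illness in human families, THC is the main psychoactive compound of cannabis, and the series title places the genetic vulnerability in astrocytes and the exposure in adolescence. The control groups were placed by their titles. The labels give no dose, age or sex. That the 3 libraries of a group are separate mice is not stated outright, and the p-values cover only differences between libraries, which may be technical. A change confined to astrocytes would be diluted in whole hippocampus, and a lower share of a cell type cannot be told apart from less RNA per cell.

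The respiratory chain passes electrons from NADH through complex I, or from succinate through complex II, to ubiquinone, then through complex III and cytochrome c to complex IV, where oxygen is reduced. Complexes I, III and IV pump protons, and ATP synthase uses that gradient, on which neurons depend to restore ion gradients after firing. Complexes I, III and IV mix subunits from nuclear and mitochondrial DNA, so both genomes contribute to the same enzymes. The 13 genes of mitochondrial DNA matched 0 rows and were not analysed here.

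Expression was given as CPM, the expected read count per 1e+06 of the library's normalised total. Totals were 33165903 to 41389957 per library, and each of the 49 genes had between 1191 and 18498 counts in each library. Mouse Disc1 averaged 2.25 ± 0.81 CPM in mutant THC, 2.54 ± 0.22 in mutant vehicle, 2.48 ± 0.08 in control THC and 2.26 ± 0.41 in control vehicle libraries (SD, n = 3 each), so its row did not separate the genotypes. Xist was at or below 0.232 CPM and the Y-linked Ddx3y at 80.6 to 138 CPM in all 12 libraries, the pattern of male tissue. Hippocampal neuron markers were present throughout: the 9 genes summed to 644 to 974 CPM in mutant THC, 739 to 836 in mutant vehicle, 873 to 1029 in control THC and 828 to 883 CPM in control vehicle libraries. Libraries differed in RNA of neighbouring tissue. The 15 choroid plexus markers, led in textbooks by transthyretin, summed to 93.5 to 6992 CPM in mutant THC, 4028 to 11208 in mutant vehicle, 100.0 to 5826 in control THC and 66.2 to 139.7 CPM in control vehicle libraries. High sums were those of mutant THC 1 and 3, all 3 mutant vehicle libraries and control THC 2. The 12 striatal neuron markers summed to 4789 CPM in mutant THC 3, to 597 CPM in mutant vehicle 3 and to 174 to 204 CPM in the other 10 libraries. No marker of either list was at 0 in any library.

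Nuclear respiratory chain genes are known in mammals for promoters read by nuclear respiratory factor 1 (NRF1), the ETS-family factor GABP and YY1, which is why promoter sequences are shown. A window of 250 bases before to 50 bases after the start site, from RefSeq (GRCm38.p6), was found for 41 of the 49 genes. Capitals mark the NRF1 core GCGCATG, the ETS core CGGAAG, the YY1 core AAGATGG and the estrogen-related receptor core AAGGTCA, each searched on both strands. The first 3 promoters are shown because they held both an NRF1 and an ETS core, the fourth for Ndufb11, one of the genes with the smallest p-values below, and the fifth for Cox8b, the complex IV isoform gene that differed most between libraries. Sdhb is at chr4:140961021-140961320 (plus strand), Cox5b at chr1:36691237-36691536 (plus strand), Cox6a1 at chr5:115348909-115349208 (minus strand), Ndufb11 at chrX:20617570-20617869 (minus strand) and Cox8b at chr7:140900397-140900696 (minus strand).
Sdhb: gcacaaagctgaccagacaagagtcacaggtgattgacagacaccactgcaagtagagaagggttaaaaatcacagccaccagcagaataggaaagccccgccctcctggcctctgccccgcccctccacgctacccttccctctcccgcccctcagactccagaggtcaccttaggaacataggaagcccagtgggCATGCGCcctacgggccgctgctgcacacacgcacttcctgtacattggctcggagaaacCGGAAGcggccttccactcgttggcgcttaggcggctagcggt
Cox5b: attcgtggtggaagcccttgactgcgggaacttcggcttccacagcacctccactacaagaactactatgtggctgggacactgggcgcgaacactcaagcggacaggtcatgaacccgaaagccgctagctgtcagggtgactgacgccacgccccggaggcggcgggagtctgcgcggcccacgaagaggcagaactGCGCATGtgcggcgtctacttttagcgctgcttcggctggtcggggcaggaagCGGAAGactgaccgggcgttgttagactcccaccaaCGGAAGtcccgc
Cox6a1: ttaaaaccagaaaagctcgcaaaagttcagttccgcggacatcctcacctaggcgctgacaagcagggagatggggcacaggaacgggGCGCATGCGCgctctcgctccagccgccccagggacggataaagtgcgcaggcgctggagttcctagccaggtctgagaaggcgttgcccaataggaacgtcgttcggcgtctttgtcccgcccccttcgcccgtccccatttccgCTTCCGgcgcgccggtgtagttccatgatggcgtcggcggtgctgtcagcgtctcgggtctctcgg
Ndufb11: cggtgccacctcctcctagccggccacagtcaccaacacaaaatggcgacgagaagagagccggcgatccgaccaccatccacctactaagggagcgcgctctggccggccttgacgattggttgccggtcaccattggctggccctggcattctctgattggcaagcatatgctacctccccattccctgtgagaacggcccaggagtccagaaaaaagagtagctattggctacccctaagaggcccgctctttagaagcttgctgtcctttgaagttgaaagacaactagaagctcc
Cox8b: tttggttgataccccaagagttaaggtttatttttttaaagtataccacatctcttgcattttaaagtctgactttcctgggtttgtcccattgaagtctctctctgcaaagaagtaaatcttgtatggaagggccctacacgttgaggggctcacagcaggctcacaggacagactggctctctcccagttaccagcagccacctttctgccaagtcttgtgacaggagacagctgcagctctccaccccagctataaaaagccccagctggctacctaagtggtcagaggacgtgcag

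The NRF1 core began 53 bases before the start site in Sdhb, which encodes the iron-sulphur subunit of complex II, and 51 bases before it in Cox5b. In Cox6a1 it read on both strands through overlapping matches that began 162 and 159 bases before the start site. The windows of Ndufb11 and Cox8b held none of the 4 cores, which says only that these letters were not in these windows. Across the 41 genes, the NRF1 core was in 8 (19.5%), against 7.08% of the 12347 tested genes with a window and 4.41% of all 27025 genes with one. The YY1 core was also in 8 (19.5%), against 7.8% of tested genes. The ETS core was in 14 (34.1%), against 31.0%, and the estrogen-related receptor core in 3 (7.32%), against 4.11%. Both an NRF1 and an ETS core were in 3 (7.32%), against 2.84% of tested genes. The GC box GGGCGG was less frequent, in 17 of 41 (41.5%) against 65.6% of tested genes, and so was CCAAT, in 13 (31.7%) against 42.7%. Median GC content, from the window of highest GC of each gene, was 59.3% for the 41 genes and 61.3% for tested genes. These matches describe letters and not binding, and windows of 8 members, Sdhc and Uqcrq among them, were not used here.

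The complexes differed in transcript level. Per kilobase of the longest annotated transcript, the 8 complex IV genes had a median level of 333 CPM per kilobase, against 138 for complex III, 108 for complex I and 96.9 for complex II. All 8 complex IV genes ranked among the top 11 of the 49, and 7 of the 8 stood above every complex I gene. Cox4i1, the ubiquitous form of the largest nuclear-encoded complex IV subunit, was highest at 590.3 ± 38.6 CPM per kilobase (SD over 12 libraries, range 545 to 664). Cox6c followed at 532 ± 44.8, with a range of 477 to 622, so these neighbours overlapped. Cox5a, a matrix-facing subunit, was lowest in complex IV at 171 ± 2.58, which left a 3.46-fold span within that complex.

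Within complex I the level per kilobase ranged from 41.3 ± 2.47 for Ndufs4, an accessory subunit of the matrix arm, to 239.9 ± 13.7 for Ndufb9, an accessory subunit of the membrane arm. The 6 core subunits that carry flavin or iron-sulphur clusters (Ndufv1, Ndufv2, Ndufs1, Ndufs3, Ndufs7 and Ndufs8) had a median of 87.3 and a range of 66.4 to 112 CPM per kilobase. The 26 accessory subunits had a median of 112 and spanned the whole range. In complex II, Sdha, the flavoprotein that oxidises succinate, was highest at 151 ± 7.62 CPM per kilobase and Sdhc, a membrane anchor, lowest at 29.3 ± 2.17. In complex III, Uqcrh, the hinge protein near cytochrome c1, reached 306 ± 25.2 CPM per kilobase, while Uqcrq, a small subunit of the dimer, was lowest at 34.9 ± 4.75. The lengths used for the lowest genes were long: 3171 bases for Sdhc, whose other transcripts have 815 and 298, and 1521 bases for Uqcrq, whose others have 504 and 405. Levels per kilobase of genes with several transcripts therefore depend on the annotation.

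**Figure D1:**
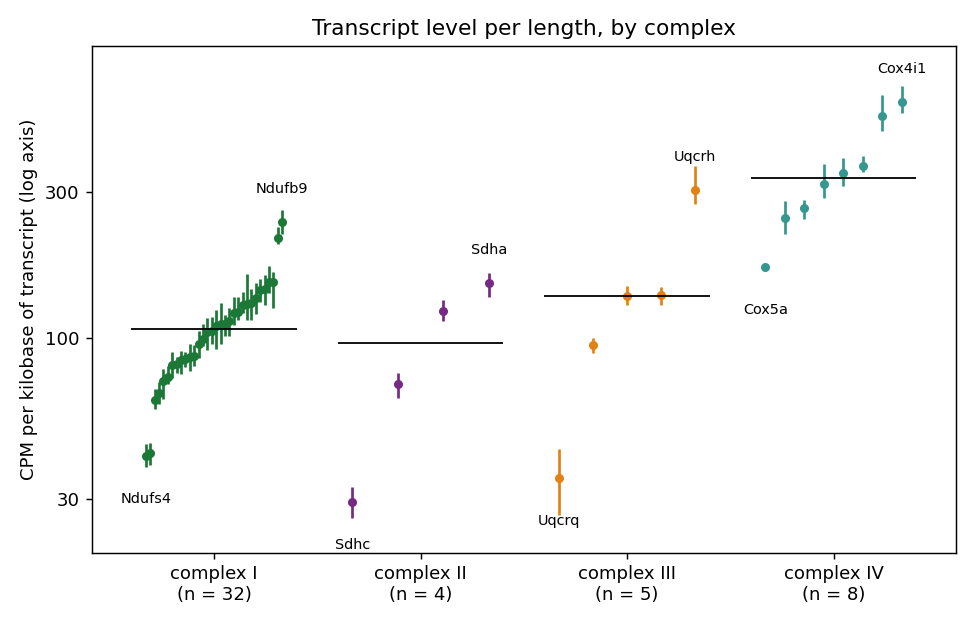
Level of each of the 49 genes by complex, in CPM per kilobase of transcript on a log axis. Points are means over 12 libraries, vertical lines the range over libraries and horizontal lines the median of each complex. Complex IV genes sit highest, from 171 for Cox5a to 590.3 for Cox4i1.

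The 49 genes varied little between libraries. The median coefficient of variation over the 12 libraries was 5.94%, against 10.97% for all tested genes and 7.34% for the 5672 tested genes in the same range of mean CPM. Of those 5672, 35.2% varied less than the median of the respiratory chain genes. A coefficient below 10% was seen for 47 of the 49. Cox5a was steadiest, with 109, 111 and 111 CPM in mutant THC, 111, 109 and 107 in mutant vehicle, 113, 109 and 111 in control THC, and 111, 108 and 112 CPM in control vehicle libraries. Its coefficient of variation was 1.51% and all 4 groups overlapped. Uqcrq varied most, at 13.6%, with 1.64-fold between its highest and lowest library.

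Summed over the 49 genes, the level was 6935, 6064 and 6627 CPM in mutant THC libraries, 6649, 6565 and 6439.9 in mutant vehicle, 6349, 6009 and 6163 in control THC, and 6693, 6125 and 6385 CPM in control vehicle libraries. The mean sum was 6542 ± 442 CPM in mutant THC, 6551 ± 105 in mutant vehicle, 6173 ± 171 in control THC and 6401 ± 285 CPM in control vehicle libraries (SD, n = 3 each). Mutant vehicle lay above control THC without overlap, and the other groups overlapped. The sum was 0.601% to 0.693% of all counts in a library.

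Within a library, most of the genes lay on the same side of their mean. In mutant THC 1, 47 of the 49 genes were above their own 12-library mean, and it was the highest library for 23 of them. In mutant THC 2, of the same group, 7 of the 49 were above their mean. In mutant vehicle libraries 47, 36 and 31 genes were above it, in control THC libraries 17, 2 and 10, and in control vehicle libraries 39, 4 and 21. Control THC 2 was the lowest library for 20 genes. Control THC 2, with a choroid plexus marker sum of 5826 CPM, had the lowest summed level, and mutant THC 2, with 93.5 CPM, the next lowest. The other 5 libraries with high choroid plexus markers, at 6439.9 to 6935 CPM, held 5 of the 6 highest summed levels.

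**Figure D2:**
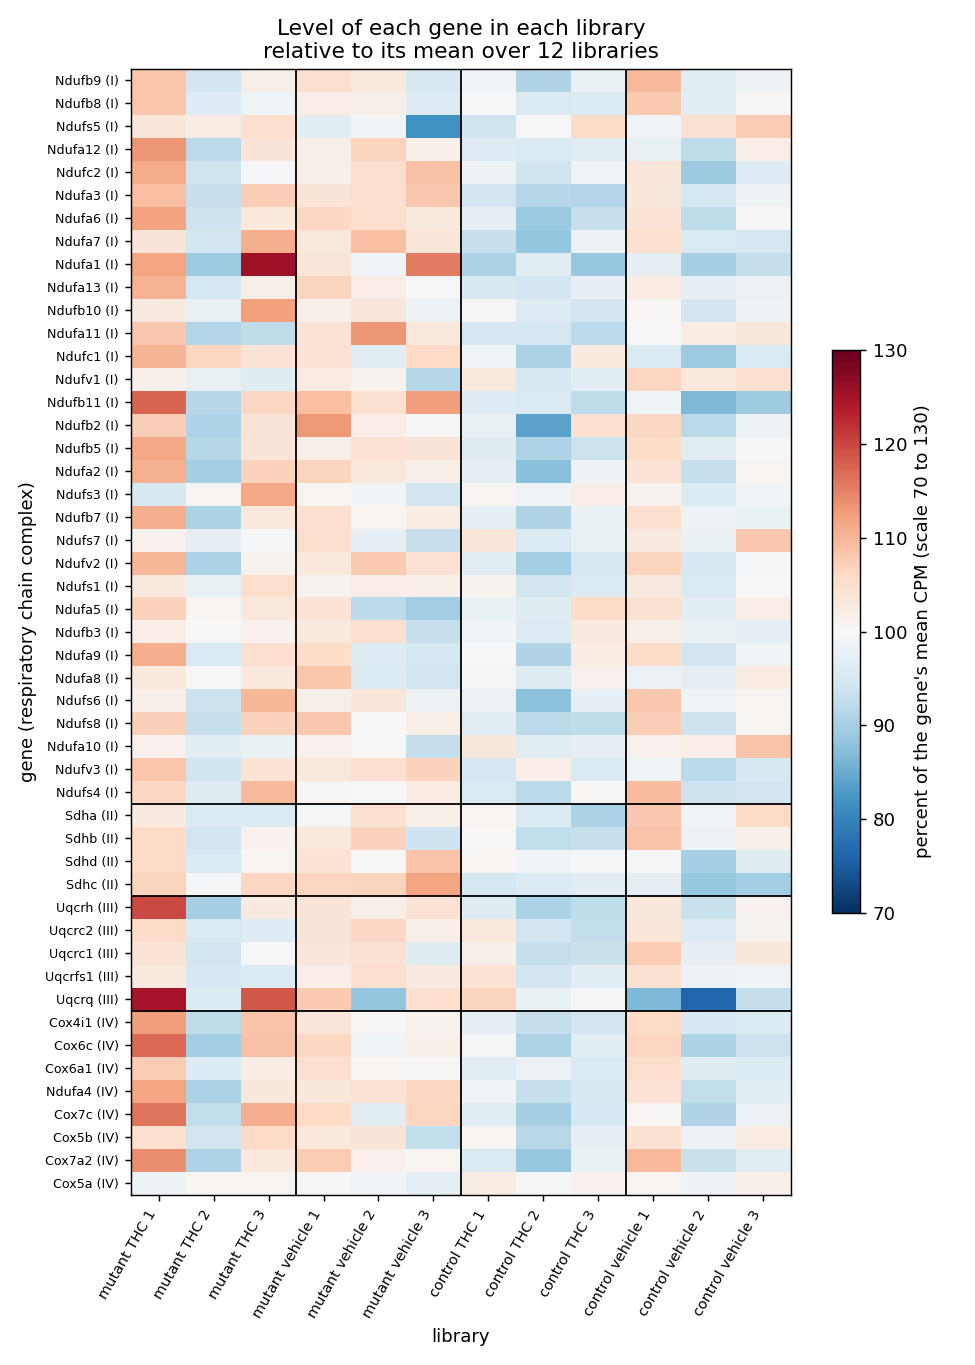
Level of each of the 49 genes (rows, grouped by complex) in each of the 12 libraries (columns, grouped by treatment and genotype), as a percent of the gene's mean CPM. Mutant THC 1 is above the mean for 47 genes, while control THC 2, control vehicle 2 and mutant THC 2 are below it for nearly all.

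The mutation effect averaged over both treatments asks how mutant mice differed from control mice, 6 libraries against 6. Most of the genes lay slightly higher in mutant mice: 43 of the 49 log2 fold changes were above 0, against 50.7% of all tested genes, and their median was 0.07, against 0.00 for all tested genes. The median was 0.05 without mutant THC 1. Markers of other cells moved with the same comparison: choroid plexus markers were high in 5 of the 6 mutant and 1 of the 6 control libraries, and 9 of 10 oligodendrocyte markers were higher at an unadjusted p under 0.05, with a median log2 fold change of 0.40. With the choroid plexus covariate the median over the 49 was 0.03, with 41 above 0. By edgeR's quasi-likelihood test with Benjamini-Hochberg adjustment over all genes, 0 of the 49 passed the threshold of 0.05, where 0.00633% of tested genes did. The gene that passed was Prm1, a sperm protamine gene, higher in mutant mice by a log2 fold change of 7.45 (adjusted p 0.00061). Prm1 also passed under vehicle, at 7.55, and under THC, at 7.34. At an unadjusted p under 0.05, 10 of the 49 (7 of complex I) were higher and 0 lower, against 12.2% of tested genes higher and 9.01% lower. DESeq2 called 2, Sdhc and Ndufb11, where it called 4.97% of all tested genes.

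Sdhc, which with Sdhd anchors complex II in the inner membrane and binds ubiquinone, had the smallest p. It was at 99.3, 92.4 and 98.8 CPM in mutant THC and 99.0, 99.2 and 104 in mutant vehicle libraries, against 88.2, 89.2 and 89.9 in control THC and 90.3, 82.5 and 83.6 CPM in control vehicle libraries. Every mutant library was above every control library, a separation in this direction that 0.411% of tested genes showed. The log2 fold change was 0.18 ± 0.04 (SE; 95% interval 0.10 to 0.26), with an adjusted p of 0.16 in edgeR and 0.0043 in DESeq2. Over 18 alternatives the fold change ranged from 0.14 to 0.20 and the adjusted p from 0.0043 to 0.9998. The choroid plexus covariate gave both the 0.14 and the 0.9998. Sdhc was at 89.2 to 104 CPM in the 6 libraries with high choroid plexus markers and at 82.5 to 92.4 CPM in the other 6. Mutant THC 2, at 93.5 CPM of those markers, was the lowest mutant library, at 92.4 CPM. Control THC 2, at 5826 CPM of those markers, was at 89.2 CPM, within the range of its group. The part of choroid plexus RNA in this difference was not tested.

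Ndufb11 and Ndufa1, accessory subunits of the complex I membrane arm, are the 2 members on chromosome X. Ndufb11 was at 118, 92.2 and 107 CPM in mutant THC and 110.02, 105 and 113 in mutant vehicle libraries, against 97.1, 96.6 and 93.1 in control THC and 99.6, 87.2 and 90.1 CPM in control vehicle libraries. Of the 6 mutant libraries, 5 exceeded all controls, and mutant THC 2 lay within the control range. The log2 fold change was 0.20 ± 0.06 with an adjusted p of 0.16 in edgeR and 0.045 in DESeq2. It was 0.08 with the choroid plexus marker level as a covariate, and the range of adjusted p over 18 alternatives was 0.038 to 0.9998. Its exons overlap those of Rbm10 on the opposite strand, and use of strand in counting was not given in the sources used here.

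Ndufa1 was at 60.5, 48.2 and 67.9 CPM in mutant THC and 56.2, 53.5 and 62.5 in mutant vehicle libraries, against 48.995, 52.4 and 47.9 in control THC and 52.5, 48.7 and 50.3 CPM in control vehicle libraries. It was highest in mutant THC 3, the library with 4789 CPM of striatal markers, and mutant THC 2 lay among the controls. Its log2 fold change of 0.21 ± 0.08 had an adjusted p of 0.17. With the choroid plexus covariate it was 0.04. Without mutant THC 3 and mutant vehicle 3, the libraries with the most striatal marker RNA, it was 0.12. The part of choroid plexus and striatal RNA in these values was not tested further.

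Ndufc1 and Ndufa3, other accessory subunits of complex I, had log2 fold changes of 0.13 ± 0.04 each, with adjusted p-values of 0.16 and 0.17. With the choroid plexus covariate that of Ndufc1 was 0.17 and that of Ndufa3 was 0.05. Ndufc1 was at 39.5, 38.2 and 37.3 CPM in mutant THC and 37.5, 34.7 and 38.0 in mutant vehicle libraries, against 35.4, 32.5 and 36.9 in control THC and 34.3, 32.0 and 34.2 CPM in control vehicle libraries. The ranges of all mutant and all control libraries overlapped through mutant vehicle 2 and control THC 1 and 3. Leaving out mutant THC 2 brought 5 of the 49 past the threshold (Sdhc, Ndufb11, Ndufa1, Ndufa3 and Cox7c), where 5.91% of all tested genes passed. That library had low choroid plexus markers, and the cause was not tested.

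**Figure D3:**
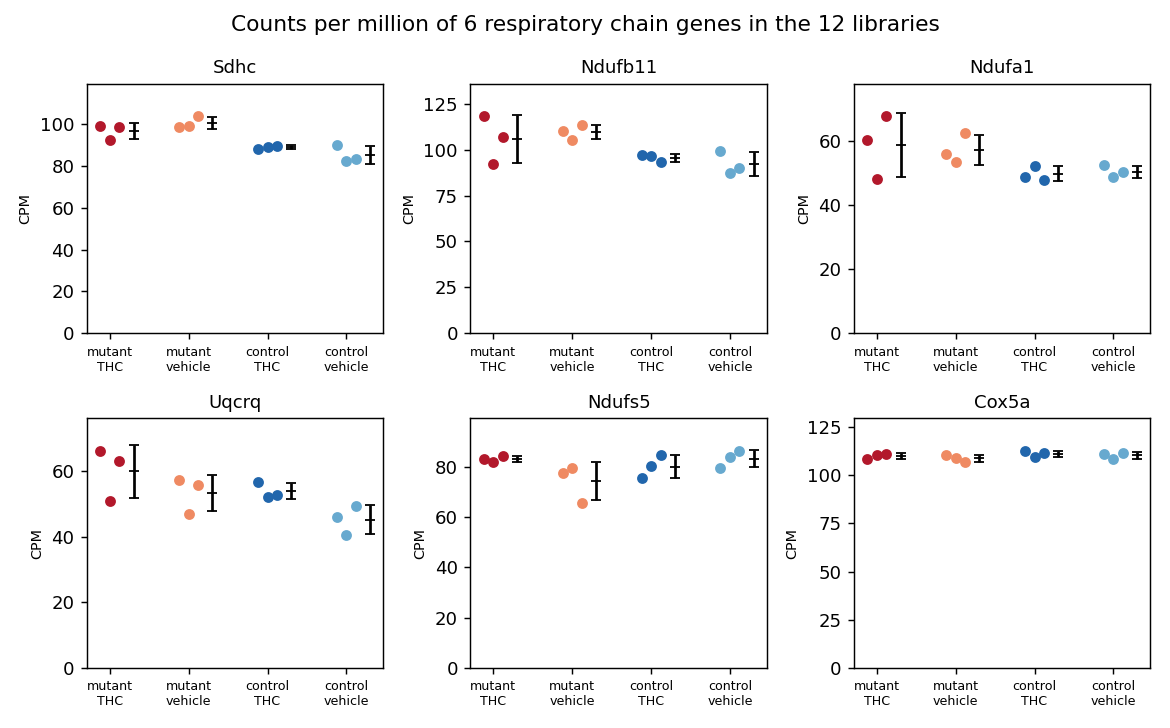
CPM of 6 genes in each library, by group. Points are libraries, and the bar beside them is the mean ± SD of 3. Sdhc separates all 6 mutant from all 6 control libraries, Ndufb11 and Ndufa1 overlap through mutant THC 2, and Cox5a stays between 107 and 113 CPM throughout.

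Cox4i1 and 4 other subunits had smaller averaged mutation effects. Cox4i1 was at 495, 406 and 477 CPM in mutant THC and 456, 442 and 444 in mutant vehicle libraries, against 428, 408 and 416 in control THC and 466, 418 and 421 CPM in control vehicle libraries. The groups overlapped, with the highest and the lowest library both in mutant THC, and the averaged log2 fold change was 0.09 ± 0.05 (adjusted p 0.34). Ndufs1, the largest iron-sulphur core subunit of complex I, averaged 232 ± 8.96 CPM in mutant THC and 231 ± 1.04 in mutant vehicle libraries, against 221 ± 8.05 in control THC and 227 ± 8.04 CPM in control vehicle libraries (SD, n = 3 each). Uqcrc1, a core protein of complex III, had an averaged log2 fold change of 0.02 ± 0.04 and Sdha one of 0.00 ± 0.04. Ndufa4, now known as a complex IV subunit despite its name, had one of 0.09 ± 0.05. Adjusted p-values for these 4 were between 0.31 and 0.97.

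The mutation effect under vehicle, mutant vehicle against control vehicle, shares its libraries with the averaged effect. Of the 49, 34 were above 0 (48.9% of tested genes), with a median log2 fold change of 0.04 against -0.01 for all tested genes. That median was 0.02 without control THC 1 or without control vehicle 2 and 0.08 without control vehicle 1. Of the 49, 0 passed the threshold where 0.00633% of tested genes did. At an unadjusted p under 0.05, 4 were higher and 1 lower, against 11.2% and 6.63% of tested genes. DESeq2 called 1, Sdhc, among 4.99% of tested genes. Groups did not overlap for 7 higher genes (Ndufa1, Ndufa3, Ndufb11, Ndufv3, Ndufc1, Sdhc and Sdhd) and 2 lower ones (Ndufa10 and Ndufv1), where 15.3% and 12.7% of tested genes did not overlap.

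Under vehicle, Sdhc differed by a log2 fold change of 0.24 ± 0.05 and Ndufb11 by 0.25 ± 0.08, with adjusted p-values of 0.16 and 0.18. Sdhd, the other membrane anchor of complex II, was at 90.9, 87.5 and 94.7 CPM in mutant vehicle libraries, against 87.1, 78.6 and 84.1 CPM in control vehicle libraries. Its log2 fold change was 0.13 ± 0.06 (adjusted p 0.26). The 2 other complex II genes did not share this direction: Sdha was at 437, 459.9 and 446 CPM in mutant vehicle against 474, 433 and 465 CPM in control vehicle libraries. Ndufv3, an accessory subunit of the NADH-oxidising module, was at 68.8, 69.9 and 71.3 CPM in mutant vehicle, against 65.7, 61.2 and 63.4 CPM in control vehicle libraries. Its log2 fold change of 0.14 ± 0.06 became -0.0095 with the choroid plexus covariate, and the median over the 49 became -0.02. All 3 mutant vehicle libraries and 0 of the 3 control vehicle libraries had high choroid plexus markers, so in these 6 libraries the 2 cannot be told apart.

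Ndufs5, an accessory subunit on the intermembrane-space side of complex I, went the other way under vehicle. It was at 77.8, 79.7 and 65.7 CPM in mutant vehicle, against 79.6, 83.9 and 86.4 CPM in control vehicle libraries, a log2 fold change of -0.16 ± 0.07 (adjusted p 0.28). The low value was that of mutant vehicle 3, and the groups overlapped. Without that library and mutant THC 3 it lay at -0.09. Ndufv1, the NADH-binding core subunit, was at 190.01, 188 and 169.7 CPM in mutant vehicle, against 197, 192 and 195 CPM in control vehicle libraries, so the groups did not overlap, and its log2 fold change was -0.09 ± 0.06 (adjusted p 0.40).

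The mutation effect under THC, mutant THC against control THC, had the most members on one side. Of the 49, 46 were above 0, against 51.5% of tested genes, with a median of 0.09 against 0.01. None passed the threshold in edgeR, where 0.00633% of tested genes did. DESeq2 called 0 of the 49 here and in the comparisons below, and its share over all tested genes is not given for these. At an unadjusted p under 0.05, 4 were higher and 0 lower, against 4.71% and 4.27% of tested genes. Only Ndufc1 and Sdhc had groups that did not overlap, both higher, against 4.83% of tested genes, and 0 were lower without overlap, against 5.70%. Ndufa3 was at 80.7, 68.8 and 79.4 CPM in mutant THC, against 69.8, 67.7 and 67.5 CPM in control THC libraries, a log2 fold change of 0.16 ± 0.06 (adjusted p 0.55). Cox7c, a small complex IV subunit, was at 200.02, 159.5 and 191 CPM in mutant THC, against 167, 155 and 163 CPM in control THC libraries, a log2 fold change of 0.18 ± 0.08 (adjusted p 0.55). For both genes mutant THC 2 was the low mutant library, within the control range for Ndufa3 and Cox7c alike. The median over the 49 was 0.14 without mutant THC 2 and 0.04 without mutant THC 1.

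THC in control mice had the opposite balance. In control THC against control vehicle, 39 of the 49 were below 0 and 10 above (50.1% of tested genes were above), with a median log2 fold change of -0.05 against 0.00. None of the 49 and 0% of tested genes passed the threshold in edgeR, DESeq2 called 0 of the 49, and 1 was higher and 0 lower at an unadjusted p under 0.05, against 3.55% and 3.45% of tested genes. Groups did not overlap for 1 higher gene (Uqcrq) and 5 lower ones (Ndufa3, Ndufa11, Ndufb5, Ndufs6 and Ndufv1), against 8.30% and 8.07% of tested genes. The median was -0.01 with 20 above 0 without control vehicle 1, -0.03 with 16 above without control THC 2, and -0.08 with 7 above without control vehicle 2. Vehicle libraries carry the numbers 6 to 11 in the labels and THC libraries the numbers 1 to 5 and 12, so treatment and library order cannot be told apart.

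Uqcrq was at 56.7, 52.1 and 52.8 CPM in control THC, against 45.9, 40.4 and 49.3 CPM in control vehicle libraries. Its log2 fold change was 0.25 ± 0.11, with an adjusted p of 0.70 and a 95% interval of 0.01 to 0.50. Sdha was at 441, 419.6 and 397 CPM in control THC, against 474, 433 and 465 CPM in control vehicle libraries, a log2 fold change of -0.13 ± 0.06 (adjusted p 0.72). Ndufa11, a membrane-arm accessory subunit, was at 62.6, 62.4 and 60.8 CPM in control THC, against 66.0, 67.3 and 68.2 CPM in control vehicle libraries, a log2 fold change of -0.12 ± 0.07 (adjusted p 0.75). The Ndufa11 groups did not overlap, while the Sdha groups did through control THC 1 and control vehicle 2. Ndufs6, a zinc-binding accessory subunit, and Ndufv1 had log2 fold changes of -0.12 ± 0.07 and -0.09 ± 0.06, with adjusted p-values of 0.75 and 0.76.

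THC in mutant mice, mutant THC against mutant vehicle, had 24 of the 49 genes above 0, against 47.5% of tested genes, with a median of -0.00 against -0.01. This balance rested on single libraries: 43 were above 0 without mutant THC 2 (median 0.04), against 16 without mutant THC 1 (median -0.04), 16 without mutant vehicle 3 (median -0.02) and 31 without mutant vehicle 1 (median 0.02). Of the 49, 0 passed an unadjusted p under 0.05, where 2.53% of tested genes did higher and 3.20% lower. None passed the threshold in edgeR, where 0% of tested genes did, or in DESeq2. Only Ndufs5 had groups that did not overlap, higher, against 4.07% of tested genes, and 0 were lower without overlap, against 4.40%. It was at 83.1, 82.0 and 84.4 CPM in mutant THC, against 77.8, 79.7 and 65.7 CPM in mutant vehicle libraries, a log2 fold change of 0.16 ± 0.07 (adjusted p 0.81). Uqcrq was at 66.2, 50.9 and 62.96 CPM in mutant THC, against 57.3, 46.9 and 55.6 CPM in mutant vehicle libraries, which overlapped, a log2 fold change of 0.17 ± 0.11 (adjusted p 0.82). Ndufa11, Ndufa5 and Uqcrfs1, the Rieske iron-sulphur protein of complex III, had log2 fold changes of -0.14 ± 0.07, 0.12 ± 0.07 and -0.08 ± 0.05 (adjusted p 0.81, 0.81 and 0.82).

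Averaged over genotypes, the THC effect left 34 of the 49 genes below 0 and 15 above, against 49.2% of tested genes above, with a median of -0.02 against -0.00. The median was 0.0019 with 26 above 0 without mutant THC 2 and -0.01 with 23 above without control vehicle 1. It was -0.01 without mutant vehicle 1, and -0.04 with 10 above without mutant THC 1 or without control vehicle 2. None passed the threshold in edgeR, where 0% of tested genes did, or in DESeq2, and 1 was higher and 1 lower at an unadjusted p under 0.05, against 2.96% and 3.09%. Those were Uqcrq, at 0.21 ± 0.08, and Ndufa11, at -0.13 ± 0.05, both with an adjusted p of 0.79. Sdha had -0.09 ± 0.04, Ndufv2, an iron-sulphur core subunit, -0.08 ± 0.05, and Ndufa3 -0.07 ± 0.04 (adjusted p 0.81, 0.83 and 0.84). None of the 49 had groups without overlap, against 0.139% of tested genes higher and 0.0949% lower.

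The interaction, the THC effect in mutant mice minus that in control mice, was above 0 for 38 of the 49 genes, against 51.3% of tested genes, with a median of 0.06 against 0.00. The median was 0.02 without control vehicle 1 (32 above 0) or mutant THC 1 (27 above 0), 0.03 without control THC 2 or mutant THC 3 (35 above 0 each), 0.09 without control THC 1 and 0.10 without mutant THC 2 (43 above 0 each). With the choroid plexus covariate it was 0.09. None of the 49 passed an unadjusted p under 0.05 or the adjusted threshold in edgeR, where 0% of tested genes passed, and DESeq2 called 0. Of tested genes, 2.16% were higher and 4.42% lower at that unadjusted p. Ndufs5 had the largest value, 0.22 ± 0.10 (adjusted p 0.76), and 0.12 without mutant THC 3 and mutant vehicle 3. Sdhc and Sdhd had -0.12 ± 0.07 and -0.12 ± 0.08 (adjusted p 0.78 and 0.79), below 0 while most of the other genes were above it. Ndufa5, a matrix-arm accessory subunit, and Ndufs6 had 0.14 ± 0.09 and 0.12 ± 0.10 (adjusted p 0.80 and 0.83). The smaller mutation effect on Sdhc under THC, 0.12 ± 0.05, than under vehicle, 0.24 ± 0.05, was therefore not a difference that passed the test.

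Intervals of the fitted fold changes reflect only the spread between these libraries of whole hippocampus. In each of the 7 comparisons, the 95% interval of all 49 genes lay within a 1.5-fold change in either direction. Within 1.25-fold lay 43 genes for the mutation under THC, 44 under vehicle and 46 averaged, 47 for THC in mutant mice, 48 in control mice and 48 averaged, and 37 for the interaction. The intervals are per gene and unadjusted. The widest interval was that of Uqcrq in every comparison.

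**Figure D4:**
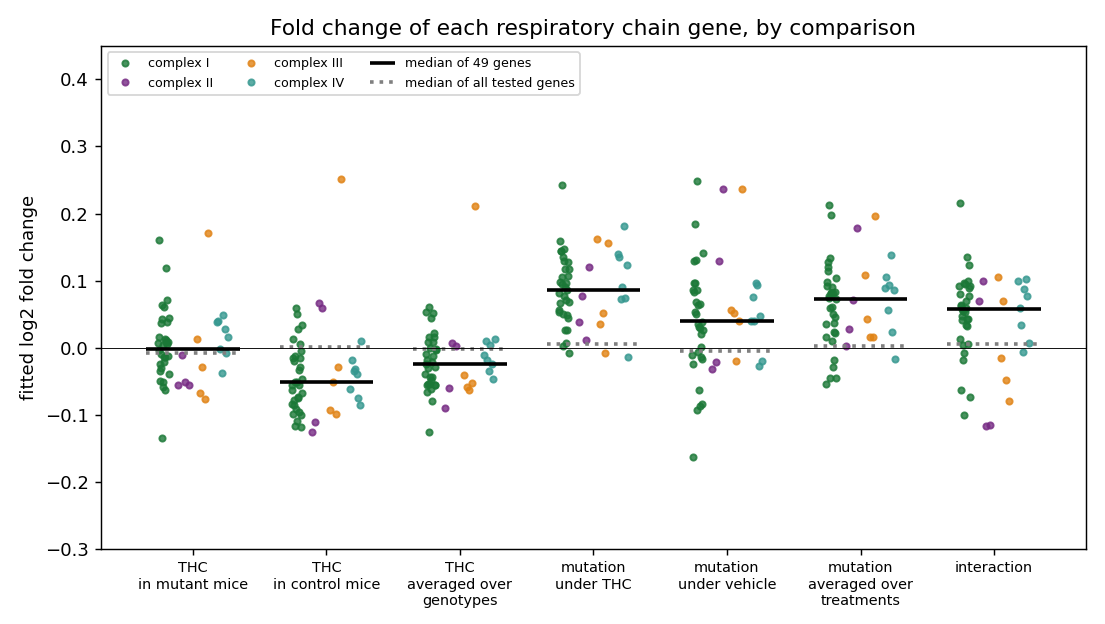
Fitted log2 fold change of each of the 49 genes in 7 comparisons, coloured by complex. Black bars mark the median of the 49 and dotted lines the median of all tested genes. The 2 mutation effects and their average lie mostly above 0, THC in control mice mostly below it, and all values stay between -0.16 and 0.25.

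Isoform genes typical of other tissues were measured at a few CPM. Cox8b, a complex IV isoform typical of heart and skeletal muscle, was at 3.33, 0.313 and 2.06 CPM in mutant THC and 1.81, 3.86 and 5.73 in mutant vehicle libraries, against 0.251, 1.801 and 0.252 in control THC and 0.474, 0.134 and 0.543 CPM in control vehicle libraries. It was low in mutant THC 2 and high in control THC 2, so it followed neither genotype nor treatment fully. In the 6 libraries with choroid plexus marker sums of 3277 CPM or more it was at 1.801 to 5.73 CPM, and in the other 6 at 0.134 to 0.543 CPM. Its log2 fold change was 3.29 ± 0.97 for the mutation under vehicle and 2.28 ± 0.66 averaged, with an adjusted p of 0.16 each. Its counts were 5 to 226 per library.

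Cox7a1 and Cox6b2 split the libraries the same way. The share of all tested genes that split them so was not counted, so the split cannot be called particular to these genes. Cox7a1, the muscle form of a small complex IV subunit, was at 1.801 to 3.27 CPM in the 6 libraries with high choroid plexus markers and 0.757 to 1.27 CPM in the other 6. Cox6b2, the testis form, was at 0.919 to 2.24 CPM in those 6 libraries and 0.421 to 0.836 CPM in the other 6. Their mutation effects under vehicle were 1.17 ± 0.35 and 1.48 ± 0.54 in log2 fold change (adjusted p 0.16 and 0.20). The ubiquitous Cox4i1 and Cox6a1 did not split: Cox4i1 spanned 408 to 495 CPM in those 6 and 406 to 466 CPM in the other 6, and Cox6a1 204 to 224 CPM in those 6 and 199 to 219.6 CPM in the other 6. For Ndufa1, Ndufb11 and Sdhc the 2 sets of libraries overlapped only in part: Ndufa1 was at 52.4 to 67.9 CPM in those 6 and 47.9 to 52.5 CPM in the other 6, Ndufb11 at 96.6 to 118 and 87.2 to 99.6 CPM, and Sdhc at 89.2 to 104 and 82.5 to 92.4 CPM.

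None of the remaining isoform genes that were tested split the libraries by these markers. Cox6a2, the heart and muscle form of Cox6a1, was at 1.70, 1.47 and 1.57 CPM in control THC, against 2.61, 2.47 and 2.64 CPM in control vehicle libraries, groups that did not overlap. That log2 fold change of -0.70 ± 0.19 had an adjusted p of 0.70, and in mutant mice it was 0.00 ± 0.19. Ndufa4l2, a hypoxia-induced relative of Ndufa4, was at 2.16, 1.62 and 1.70 CPM in mutant THC, against 0.840, 1.43 and 1.34 CPM in mutant vehicle libraries (log2 fold change 0.60 ± 0.22, adjusted p 0.81). Cox4i2, the hypoxia-responsive form of Cox4i1, overlapped only in part. It was at 0.781 to 1.45 CPM in the 6 libraries with high choroid plexus markers and 0.620 to 0.995 CPM in the other 6. Cox7b2 was at 0.161 to 0.540 CPM, Cox8c had 0 counts in all 12 libraries, and Cyct, the testis cytochrome c, had 13 counts in all and was not tested.

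**Figure D5:**
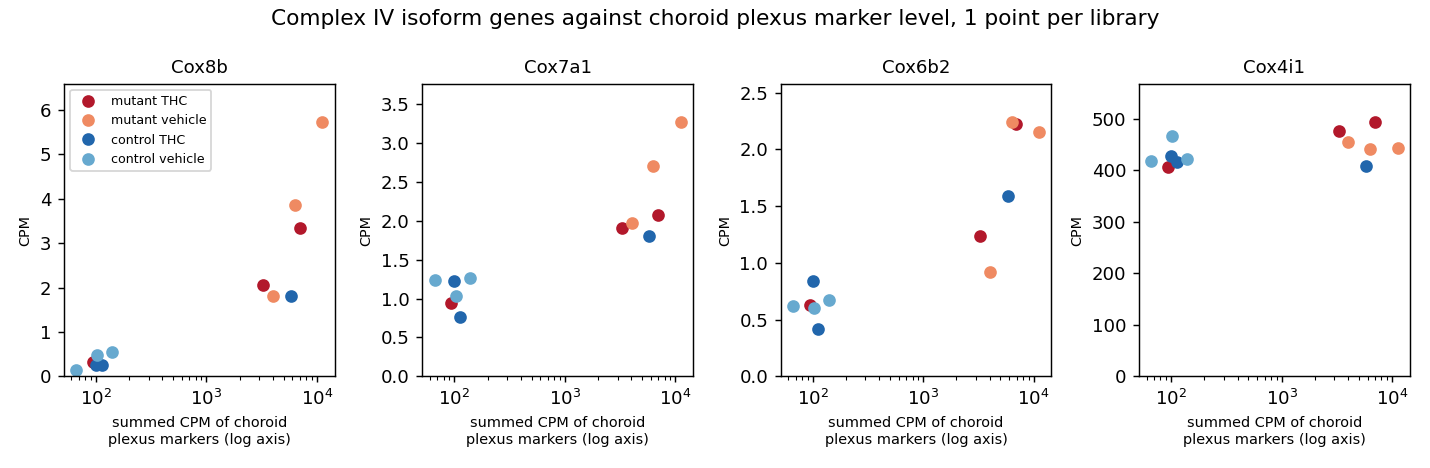
CPM of 3 tissue-restricted complex IV isoform genes and of the ubiquitous Cox4i1 against the summed CPM of 15 choroid plexus markers (log axis), 1 point per library, coloured by group. Cox8b, Cox7a1 and Cox6b2 are higher in the 6 libraries with marker sums of 3277 CPM or more, while Cox4i1 overlaps, at 408 to 495 against 406 to 466 CPM.

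Other genes of oxidative phosphorylation are given from lists fixed by name. Of 13 further subunit genes of complexes I to IV, 13 were above 0 for the averaged mutation effect with a median log2 fold change of 0.07, and 1, Uqcrb of complex III, passed an unadjusted p under 0.05 (0.15 ± 0.06, adjusted p 0.21), where 12.2% of tested genes were higher. Of 16 ATP synthase genes, 14 were above 0 with a median of 0.07, and 3 were higher at that p, against the same 12.2%. Of these, Atp5l had 0.18 ± 0.05 and Atp5e 0.14 ± 0.05, with an adjusted p of 0.16 each. Atp5l was at 199.99, 162 and 192 CPM in mutant THC and 181, 193 and 193 in mutant vehicle libraries, against 165, 159 and 168 in control THC and 177, 160.2 and 164 CPM in control vehicle libraries. As with the 49 genes, mutant THC 2 was the lowest mutant library.

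Of 39 assembly factors, which build the complexes without staying in them, 24 were above 0 and 2 were higher at an unadjusted p under 0.05, against 12.2% of tested genes. Cox20, a chaperone of a mitochondrially encoded complex IV subunit, had a log2 fold change of 0.39 ± 0.12 (adjusted p 0.16). It was at 8.75 to 12.5 CPM in the 6 libraries with high choroid plexus markers and 6.47 to 8.19 CPM in the other 6. Here too the share of all tested genes that split so was not counted. Of 16 genes of the tricarboxylic acid cycle, 8 were above 0 for the averaged mutation effect, and Suclg2, a succinyl-CoA ligase subunit, had 0.29 ± 0.07 (adjusted p 0.16). It was at 23.1 to 29.5 CPM in the 6 libraries with high choroid plexus markers and 20.01 to 23.9 CPM in the other 6. For THC in control mice, 14 of those 16 were below 0 and 7 had lower groups without overlap, where 8.07% of tested genes did. The median of these 16 was -0.08, against -0.05 for the 49 respiratory chain genes.

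Of 15 regulators of mitochondrial biogenesis, 8 were above 0 for the averaged mutation effect, with 1 higher and 2 lower at an unadjusted p under 0.05, against 12.2% and 9.01% of tested genes. Ppargc1a, the coactivator PGC-1alpha, was at 44.0, 37.4 and 38.0 CPM in mutant THC and 37.3, 43.3 and 39.5 in mutant vehicle libraries, against 38.7, 34.9 and 27.8 in control THC and 38.2, 32.6 and 39.8 CPM in control vehicle libraries (0.18 ± 0.09, adjusted p 0.26). Polrmt, the mitochondrial RNA polymerase, was at 18.7, 17.8 and 19.8 CPM in mutant THC and 19.8, 20.8 and 18.4 in mutant vehicle libraries, against 21.04, 23.01 and 21.1 in control THC and 22.7, 27.0 and 22.4 CPM in control vehicle libraries. All 6 mutant libraries were below all 6 control libraries, a separation in this direction that 0.753% of tested genes showed, with a log2 fold change of -0.25 ± 0.06 (adjusted p 0.16).

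Polg, the mitochondrial DNA polymerase, also had all mutant libraries below all controls. Its log2 fold change was -0.16 ± 0.05, and that of Tfb1m, a mitochondrial ribosomal RNA methyltransferase, was 0.32 ± 0.08, both with an adjusted p of 0.16. Tfb1m was at 4.35 to 5.24 CPM in mutant THC and 4.08 to 4.36 in mutant vehicle libraries, against 3.59 to 4.01 in control THC and 3.17 to 3.90 CPM in control vehicle libraries, so mutant libraries were all above control libraries, as for 0.411% of tested genes. Among factors whose motifs were searched above, Nrf1 had an averaged mutation effect of 0.02 ± 0.05, Gabpa 0.09 ± 0.04, Gabpb1 0.01 ± 0.07, Yy1 -0.03 ± 0.04 and Esrra 0.11 ± 0.07 in log2 fold change. Tfam, the packaging factor of mitochondrial DNA, had -0.04 ± 0.04. Adjusted p-values for these 6 were between 0.27 and 0.94.

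Marker sums of 5 other cell classes of the hippocampus and its lining are given beside these values, and no marker of these lists was at 0 in any library. The 10 oligodendrocyte markers summed to 4721 to 7580 CPM in mutant THC and 6409.8 to 7266 in mutant vehicle libraries, against 3584 to 5339 in control THC and 4624 to 5877 CPM in control vehicle libraries. The 13 pan-neuronal markers summed to 5551 to 6317 CPM in mutant THC and 5798 to 6075 in mutant vehicle libraries, against 6094 to 6688 in control THC and 6159.6 to 6767 CPM in control vehicle libraries. The 10 astrocyte markers summed to 5208 to 6591 CPM in mutant THC, 5946 to 6393 in mutant vehicle, 5884 to 5948 in control THC and 6416 to 6614 CPM in control vehicle libraries. Per gene, 8 of these 10 were above 0 for the mutation under vehicle, with a median log2 fold change of 0.09, unlike the sums. Averaged over treatments 8 were above 0 too, with a median of 0.09. At an unadjusted p under 0.05, 1 was higher, against 12.2% of tested genes. The 9 ependymal markers summed to 47.8 to 74.3 CPM in mutant THC and 44.8 to 122.7 in mutant vehicle libraries, against 27.7 to 70.3 in control THC and 19.2 to 44.02 CPM in control vehicle libraries. For the averaged mutation effect all 9 were above 0, with a median log2 fold change of 1.09. At an unadjusted p under 0.05, 8 were higher, against 12.2% of tested genes. The 10 microglial markers summed to 508 to 550.3 CPM in mutant THC and 509.6 to 539.5 in mutant vehicle libraries, against 453 to 496 in control THC and 451 to 548 CPM in control vehicle libraries. All 10 were above 0, with a median of 0.11, and 3 were higher at that p, against the same 12.2%. Of the 13 pan-neuronal markers, 5 were above 0 for the averaged mutation effect, with a median of -0.02. At that p, 1 was higher and 4 lower, against 12.2% and 9.01% of tested genes. Of the 9 hippocampal neuron markers, 1 was above 0, with a median of -0.19, and 0 passed that p. Of 8 endothelial markers, all were above 0 for THC averaged over genotypes, and 4 were higher at that p, against 2.96% of tested genes. Of 10 fibroblast and mural markers, 5 were lower and 0 higher at that p for THC in mutant mice, against 3.20% and 2.53%. For THC in control mice, all 10 oligodendrocyte markers were below 0, with a median of -0.23. All 15 choroid plexus markers were above 0 there, with a median of 3.34 and a high sum only in control THC 2. The part of cell composition in the small shifts of the respiratory chain genes was not tested.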

How the data were processed

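Total RNA of hippocampus was depleted of ribosomal RNA and sequenced as paired reads of 100 bases, per the labels' protocols. Per the submitters' processing notes, the tools were Bowtie2 2.2.2, RSEM 1.2.21, CASAVA 1.8.4, edgeR 3.10.2 and FastQC, with the build mm10. The table the authors deposited holds an expected count for each gene, the estimate of RSEM per the file headers, not scaled for depth or length. Between 27.2% and 29.4% of values per library were not whole, as reads shared between genes are split. All 49 genes had such values in at least 1 library, and 13 share exon positions with another annotated gene, 11 of them on the opposite strand. Use of strand in counting was not given in the sources used here. Of the 23382 rows, named by RefSeq transcripts, 23007 took a symbol from RefSeq and 133 from GENCODE, 7 held several symbols and 235, with 0.727% of counts, kept their accession.

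Counts were rounded, filtered with filterByExpr, scaled by TMM (factors 0.989 to 1.01) and tested in edgeR 4.0.16 (R 4.3.3) by its quasi-likelihood F test in 1 model of 4 group means over 12 libraries. P-values were adjusted by Benjamini-Hochberg over 15802 genes with a threshold of 0.05, SE came from the F statistic, and intervals are 95%. The 7 contrasts share libraries. CPM uses TMM totals. Levels per kilobase use the longest GENCODE M21 transcript matched to the row. Alternatives were DESeq2 1.42.0, other scaling factors, no filter, a choroid plexus marker covariate, other transcript lengths and leaving out each library. One more, chosen after seeing the data, left out mutant THC 3 and mutant vehicle 3. The lowest chi-square per gene of 66 library pairs was 12.0, so all 12 were kept as separate.

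The members and gene lists were chosen with earlier results of these data known. Named were 7 fixed subunits (Ndufs1, Ndufv1, Ndufa4, Sdha, Uqcrc1, Cox4i1 and Cox5a), the 5 smallest p-values per comparison, the highest and lowest level per kilobase in each complex, and up to 4 of each other list, or all isoforms and regulators. Cox6c, Cox6a1, Sdhb, Cox5b and genes listed as not overlapping were named after their values were seen. The fit was tested on simulated data.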

Additional observations from a re-analysis of the deposited data

How the results depend on the processing

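The medians and counts over the 49 genes, and the genes named by p-value, were recomputed under 18 alternatives. Of 931 recomputed values, 919 kept direction and side of the threshold or moved by less than the spread between replicates. A median was judged only by the size of its move, against a spread of 0.061, so a change of sign could pass. For the mutation under vehicle it went from 0.04 to -0.02 with the choroid plexus covariate and passed. The values include the level per kilobase of each gene, which could change only where transcripts of a gene differ in length. DESeq2 called 1 of the 49 genes for the mutation under vehicle (Sdhc, log2 fold change 0.24, adjusted p 0.0033) and 2 for the mutation averaged over treatments (Sdhc 0.18, adjusted p 0.0043, and Ndufb11 0.20, adjusted p 0.045). The cause was not tested, and over all genes DESeq2 called 788 and 785 where edgeR called 1. Leaving out each library in turn gave 0 to 5 called genes for the averaged mutation effect. The 5 came without mutant THC 2, where 942 of 15940 genes were called. Ndufv3 reversed to -0.0095 (mutation under vehicle, adjusted p 0.99) with the choroid plexus covariate, which is high in all mutant vehicle and low in all control vehicle libraries. The median over the 49 genes under that covariate was -0.02 for the mutation under vehicle, 0.03 averaged and 0.07 under THC. Leaving out 1 library moved the median between 0.05 and 0.10 for the averaged mutation, 0.04 and 0.14 under THC, 0.02 and 0.08 under vehicle, -0.08 and -0.01 for THC in control mice, -0.04 and 0.04 for THC in mutant mice, -0.04 and 0.0019 for THC averaged, and 0.02 and 0.10 for the interaction. With the mean transcript length the level of Ndufv3 was 64.2 CPM per kilobase, against 42.1 with the longest. Each gene had 1191 counts or more per library, and counting error and library differences were not separated in the intervals. No paired analysis was possible because the numbers in the titles do not recur between groups.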
